A study of Mus musculus with 32 samples.

Results

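The nuclear receptor superfamily was followed through the response of mouse macrophages to lipopolysaccharide (LPS). The members were taken from a list of nuclear receptor genes, and each was read from the transcript with the highest mean count of that gene. The list held 39 genes of the 25067 in the table, and 21 of the 39 passed the expression filter (RPKM above 1 on average in some group) and were tested, while the other 18 are given by their count ranges. RPKM (reads scaled by transcript length and library size) is used here to compare levels between genes, while CPM (counts scaled by the TMM library size alone) is used to compare 1 gene between groups.

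RNA-seq was measured in bone marrow-derived macrophages (BMDMs) of C57Bl6/J background, grown for 7 days in medium conditioned by L929 cells, from male mice aged 6 to 12 weeks. Cells were wild type (BMDM-WT) or lacked Nur77 (BMDM-Nur77-KO), and each genotype was sampled without LPS (0 h) and after 1, 5 and 18 h with 100 ng/ml LPS, which gave 8 groups of 4 replicates and 32 libraries. Nur77 is the product of Nr4a1, itself a member of the family. The knockout was whole-body: mice with a loxP-flanked Nr4a1 were crossed with mice expressing Cre from the CMV promoter, the Nur77-KO mice were then bred free of Cre, and WT littermates were the controls. The labels give the knockout genotype as cre. The deleted exons are not given in the sources used here, and the table holds 1 value per transcript, so the reads left on Nr4a1 in BMDM-Nur77-KO cannot be placed within the gene. The methods describe 4 replicate wells without the number of mice, so the p-values measure the spread between these samples, which may be technical.

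Nuclear receptors are transcription factors that bind DNA through a zinc-finger domain, and many of them are switched by small lipophilic ligands such as steroids, retinoids, oxysterols and fatty acids. Unliganded receptors often hold corepressors, such as NCoR1, that are exchanged for coactivators upon ligand binding. In macrophages, LXRs govern cholesterol efflux and lipogenesis, PPARγ lipid uptake and the glucocorticoid receptor (GR) the damping of inflammatory genes, with RXRs as the shared partners of LXRs, PPARs and RARs, whereas the NR4A receptors are immediate-early genes that act without a classical ligand.

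The promoters of the 3 NR4A genes are shown since these genes were raised by LPS within 1 h. The 250 bases before the transcript start are taken from RefSeq on GRCm38.p6, at chr15:101266596-101266845 (plus strand) for Nr4a1, chr2:57124004-57124253 (minus strand) for Nr4a2 and chr4:48045055-48045304 (plus strand) for Nr4a3. Each is written 5′ to 3′ along its gene, and capitals mark TGACG, the CRE half-site bound by CREB and ATF factors, on either strand (the complement reads CGTCA).
Nr4a1: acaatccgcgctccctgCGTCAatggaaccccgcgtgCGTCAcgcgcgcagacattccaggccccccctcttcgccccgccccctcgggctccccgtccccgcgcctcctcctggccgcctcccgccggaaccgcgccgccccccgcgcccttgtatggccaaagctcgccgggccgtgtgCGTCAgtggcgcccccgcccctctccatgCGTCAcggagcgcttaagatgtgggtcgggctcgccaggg
Nr4a2: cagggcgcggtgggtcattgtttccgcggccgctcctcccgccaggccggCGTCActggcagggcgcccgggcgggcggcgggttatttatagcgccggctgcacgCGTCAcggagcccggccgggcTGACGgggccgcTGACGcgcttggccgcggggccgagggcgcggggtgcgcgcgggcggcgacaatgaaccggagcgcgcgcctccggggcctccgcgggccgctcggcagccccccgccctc
Nr4a3: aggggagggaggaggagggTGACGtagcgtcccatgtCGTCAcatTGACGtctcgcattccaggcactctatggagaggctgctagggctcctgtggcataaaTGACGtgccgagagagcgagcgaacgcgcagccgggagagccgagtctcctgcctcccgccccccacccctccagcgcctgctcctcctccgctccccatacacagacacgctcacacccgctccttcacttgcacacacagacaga
Each of the 3 windows held 4 half-sites. At least 1 half-site was found in 5836 of 32851 such windows (17.8%), and at least 4 in 45 (0.137%). The limit of 4 is the count seen in the 3 windows themselves. Nr3c1 and Thra had no window in the table, and those of the other tested members held at most 1. The full palindrome TGACGTCA, searched in windows that reach 50 bases past the start, was found in 1.79% of windows and in none of those of the 19 tested members with a window. In the same windows, the AP-1 motif TGANTCA was found in 0 of these 19 members (7.81% of all windows). An NF-kB consensus was found in 2, Nr4a1 and Rara (4.51% of all windows). Further motifs were searched and are not reported here. The shares are over all windows and were not matched for GC content. These matches describe letters and not binding.

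Totals per library were 8742362 to 15780926 counts, with a median of 11847140. The 8 macrophage marker genes were expressed in every library, with a summed level of 11065 to 18876 CPM. Of the other lists, the neutrophil markers summed to 11.8 to 36.7 CPM, the B cell markers to 1.38 to 4.69 CPM, and the fibroblast, mast cell and erythroid markers to at most 3.93 CPM. The T and NK cell list reached 22.0 to 38.4 CPM at 5 h, against 0.190 to 2.94 CPM at the other times, through Lck (up to 38.4 CPM), while Cd3e stayed at or below 0.417 CPM. The dendritic cell list likewise peaked at 5 h, at 10.4 to 21.9 CPM, through Xcr1 (up to 21.2 CPM), with Flt3 at or below 0.301 CPM. The targeted gene Nr4a1 was at 4.44 to 7.00 CPM in the 4 BMDM-Nur77-KO libraries at 0 h and at 15.5 to 25.7 CPM in the 4 of BMDM-WT, so no library at 0 h went against its label. In bulk RNA, fewer cells of a type and less RNA per cell cannot be told apart.

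Libraries of the same group differed in the balance between GC-rich and GC-poor transcripts. This balance was measured as the mean log2 CPM of the 2737 genes with a transcript GC content over 55% minus that of the 2617 genes under 45%. It was lowest in BMDM-Nur77-KO replicate 1 at 5 h, at -2.41 against -1.51 to -1.02 in the other 3 replicates. BMDM-Nur77-KO replicate 4 at 18 h lay at -1.52 against -0.73 to -0.56, and BMDM-WT replicate 3 at 18 h at -1.11 against -0.56 to -0.45. The balance was also lower at 5 h in BMDM-WT (-1.21 to -0.97) than at 0 h (-0.59 to -0.34). The tested receptors were rich in GC, with a median of 57.0% against 50.2% over all genes tested, and 12 of the 21 were over 55%. Results were therefore also computed without these 3 libraries and with a correction for GC content, and what the imbalance contributes to a result was not tested beyond this.

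**Figure D1:**
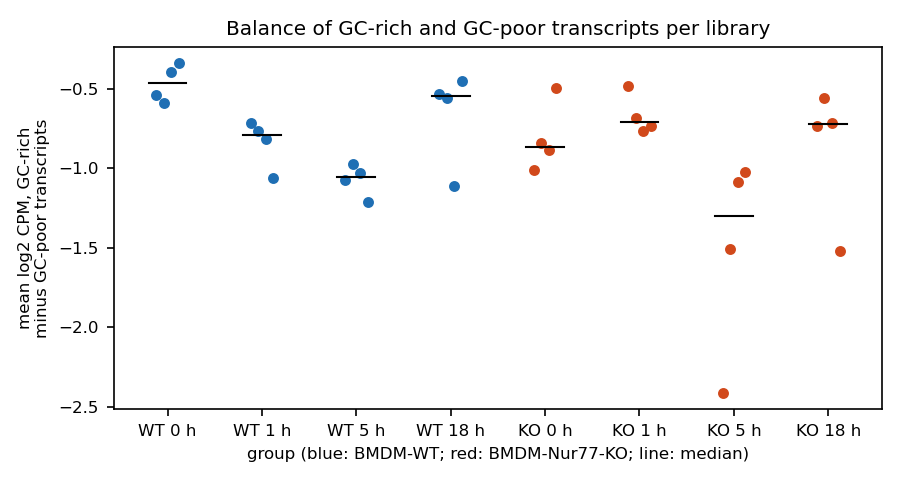
GC balance of the 32 libraries by group (y axis: mean log2 CPM of transcripts over 55% GC minus that of transcripts under 45% GC; x axis: time after LPS, by genotype; each point is 1 library). The 3 libraries that lie lowest within their own groups are BMDM-Nur77-KO replicate 1 at 5 h (-2.41), BMDM-Nur77-KO replicate 4 at 18 h (-1.52) and BMDM-WT replicate 3 at 18 h (-1.11).

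Before LPS, BMDM-WT expressed 4 receptors well above the others per length. Pparg, the regulator of lipid uptake and storage, had 27.0 ± 1.85 RPKM (SD, n = 4), Rxra, the shared heterodimer partner, 26.4 ± 2.98 RPKM, Nr1h2, encoding LXRβ, 23.3 ± 0.63 RPKM and Nr3c1, encoding GR, 16.4 ± 0.85 RPKM. Pparg and Rxra lay within each other's spread. For Rxra, however, a transcript of 4905 bases had nearly the mean count of the one kept, of 1989 bases (592.6 against 592.9). The same held for Rora (10878 against 2591 bases, 246.3 against 246.6). With the longer transcript the RPKM of both would be lower at every time. Their ranks here and below, and the count of members over 10 RPKM, rest on this choice. The next were Rxrb (9.02 ± 0.83 RPKM), Nr4a1 (7.94 ± 1.75), Nr1d2 (7.47 ± 1.14), Rora (7.40 ± 0.27) and Esrra (6.70 ± 0.80 RPKM), whose spreads overlapped between neighbours. At 1 h, Nr4a1 stood first with 176 ± 24.3 RPKM. At 5 h the order had turned, and Nr3c1 led with 52.8 ± 2.57 RPKM, followed by Nr1h2 with 25.7 ± 1.03 RPKM, while Rxra and Pparg were at 3.37 ± 0.68 and 2.36 ± 0.41 RPKM. At 18 h, Nr1h3, encoding LXRα, was the most abundant with 46.9 ± 6.58 RPKM, ahead of Rxra (38.0 ± 2.28 RPKM), Nr1h2 (26.6 ± 3.88), Nr1d2 (24.7 ± 4.88) and Nr3c1 (24.6 ± 5.17 RPKM), and the last 3 could not be separated by their spread. A receptor over 10 RPKM in at least 1 group was found for 9 of the 21 tested members.

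**Figure D2:**
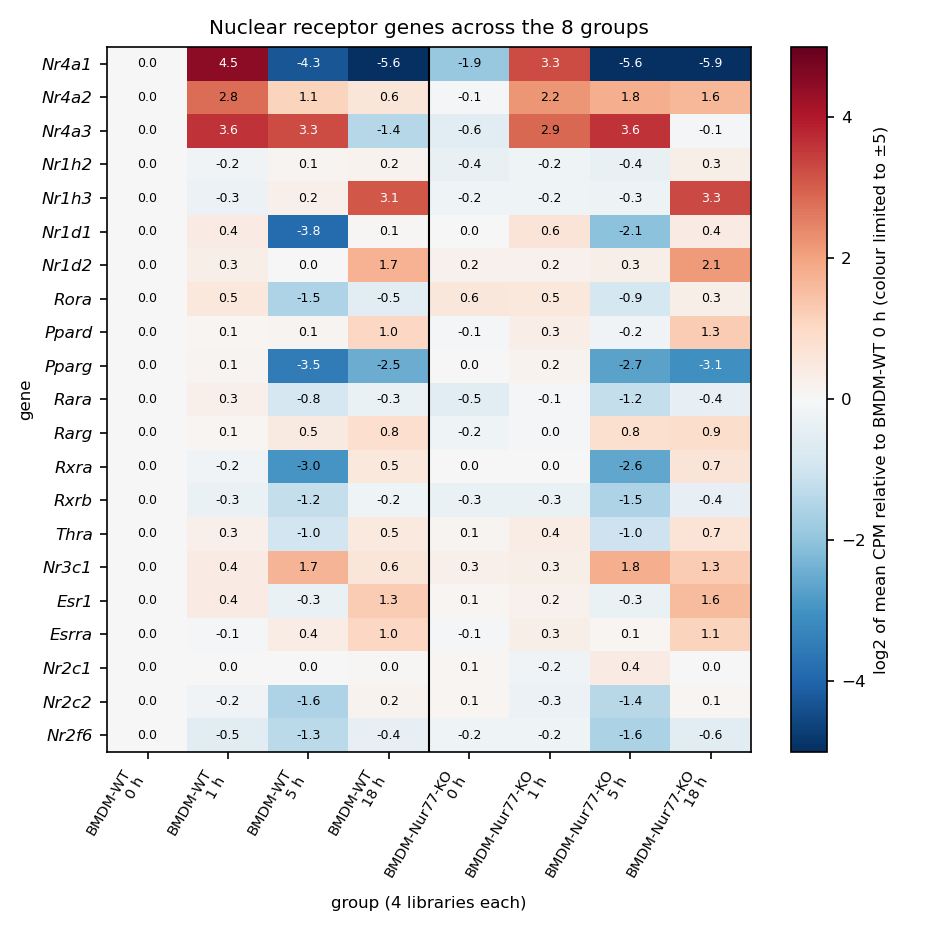
Mean level of the 21 tested receptors in the 8 groups relative to BMDM-WT at 0 h (colour: log2 of the mean CPM plus 0.1 over that of BMDM-WT at 0 h, limited to ±5; rows: genes by role; columns: genotype and time after LPS). The NR4A genes are high at 1 h, Rxra, Pparg, Rora, Nr2c2 and Nr1d1 are low at 5 h, and Nr1h3, Nr1d2, Esr1, Esrra and Ppard are high at 18 h in both genotypes.

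The response to LPS in BMDM-WT was compared with 0 h at each time, and these comparisons share the 0 h libraries. At 1 h, 6 of the 21 members passed edgeR's quasi-likelihood test, adjusted by Benjamini-Hochberg across all 11279 tested genes, against 20.3% of all genes. Of these, 5 rose (10.2% of all genes) and 1 fell (10.2%). At 5 h, 14 passed (70% of all genes). Here 4 rose (30%) and 10 fell (40.1%). At 18 h, again 14 passed (66.3% of all genes), but 10 rose (32.3%) and 4 fell (33.9%). The share of members called at 5 and 18 h was thus close to that of all genes. Past a log2 fold change of 1 either way, 3, 11 and 8 members passed at 1, 5 and 18 h, against 5.19%, 33.7% and 27.4% of all genes. Without the 3 libraries named above, 9, 15 and 15 members passed at 1, 5 and 18 h (4154, 8659 and 8073 of the 11279 genes). None of the 3 is in the BMDM-WT groups at 0, 1 or 5 h. The counts at 1 and 5 h thus changed only through the spread estimated over all groups and the scaling. With the GC correction, the split at 5 h was 8 higher and 10 lower, since Nr1h2, Nr1h3, Esrra and Ppard then passed as higher, whereas 12 were higher and 4 lower at 18 h. Over all genes the corrected split was 4152 higher and 4013 lower at 5 h and 4246 and 3857 at 18 h.

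Between 5 and 18 h in BMDM-WT, 18 members passed (69.1% of all genes), 15 of them upward (35.9% of all genes) and 3 downward (33.2%). The median log2 fold change of the tested members from 5 to 18 h was 0.95 against 0.03 over all genes. Between 1 and 5 h, 14 passed (64.8% of all genes), 2 upward (28.9%) and 12 downward (36%), with a median of -0.80 against -0.08. The medians follow the genes that passed the filter and carry no test. Past a log2 fold change of 1, 12 members passed from 5 to 18 h (30.1% of all genes) and 10 from 1 to 5 h (30.2%). Without the 3 libraries, 18 members passed from 5 to 18 h (8427 of the 11279 genes) and 18 from 1 to 5 h (8107), a step that holds none of the 3. Over the whole time course, Nr1h2 and Nr2c1 (which encodes the orphan receptor TR2) were the members that passed in no comparison of BMDM-WT with 0 h, although Nr1h2 did in other fits, as given with the LXR genes.

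The NR4A genes were the most strongly raised members at 1 h. Nr4a1 had 19.4, 15.5, 25.7 and 18.1 CPM in the 4 BMDM-WT libraries at 0 h and 484, 485, 358 and 421 CPM at 1 h. It then fell to 0.797, 0.979, 0.888 and 1.06 CPM at 5 h and was at 0.366, 0.476, 0.174 and 0.259 CPM at 18 h. The groups did not overlap at any of these steps, and every library at 5 and 18 h lay below every library at 0 h. The log2 fold change against 0 h was 4.48 (SE 0.18) at 1 h, -4.38 (SE 0.27) at 5 h and -5.91 (SE 0.31) at 18 h (adjusted p = 3.4e-19, 3.29e-15 and 6.69e-17 by edgeR's quasi-likelihood test). From 1 to 5 h it fell by 8.86 on the log2 scale. The 5 and 18 h libraries held 2 to 9 counts, so the size of the fall has little depth behind it.

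Nr4a2 (Nurr1) had 1.22, 1.45, 1.66 and 1.31 CPM at 0 h and 12.2, 11.1, 7.22 and 11.1 CPM at 1 h. It remained at 2.73, 3.67, 2.66 and 3.55 CPM at 5 h and 2.56, 2.19, 2.44 and 1.73 CPM at 18 h. All later libraries lay above all 0 h libraries, with a log2 fold change of 2.86 (SE 0.23, adjusted p = 1.3e-11), 1.15 (SE 0.27, adjusted p = 0.000398) and 0.65 (SE 0.27, adjusted p = 0.0372) by edgeR. Nr4a3 (Nor-1) had 0.992, 0.571, 0.756 and 0.943 CPM at 0 h and 12.2, 11.1, 7.56 and 12.9 CPM at 1 h. Unlike Nr4a1 it was still at 9.22, 8.08, 8.88 and 8.75 CPM at 5 h, and it dropped to 0.0915, 0.191, 0.348 and 0.345 CPM (1 to 4 counts) at 18 h. Its log2 fold change against 0 h was 3.76 (SE 0.25, adjusted p = 2.66e-13) at 1 h, 3.44 (SE 0.26, adjusted p = 7.37e-13) at 5 h and -1.65 (SE 0.49, adjusted p = 0.00384) at 18 h in edgeR's test. The 3 NR4A genes, whose promoters were picked for the rise at 1 h, differed at 5 h: Nr4a1 was below its 0 h level, Nr4a2 above it by 2.22-fold and Nr4a3 by 10.8-fold. Whether the half-sites bear on either was not tested.

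**Figure D3:**
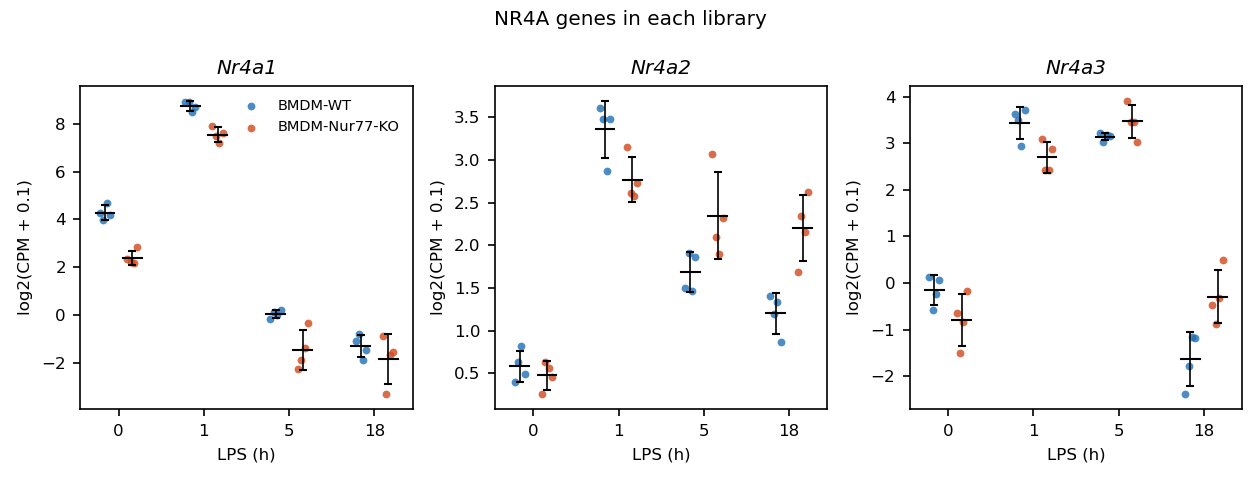
Levels of Nr4a1, Nr4a2 and Nr4a3 in every library (y axis: log2 of CPM plus 0.1; x axis: time after LPS; points: single libraries of BMDM-WT and BMDM-Nur77-KO; bars: mean and SD, n = 4). All 3 genes peak at 1 h in BMDM-WT, Nr4a3 stays high at 5 h, and at 18 h the BMDM-Nur77-KO libraries of Nr4a2 and Nr4a3 lie above those of BMDM-WT.

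Rxra, which encodes the obligate partner of LXRs, PPARs and RARs, swung down and back. In BMDM-WT it had 52.1, 45, 59.4 and 53.5 CPM at 0 h, 8.08, 6.98, 6.88 and 4.85 CPM at 5 h, and 74.3, 77.8, 70.0 and 80.5 CPM at 18 h. The 3 groups were separate, the lowest at 5 h and the highest at 18 h. The log2 fold change was -2.97 (SE 0.13, adjusted p = 1.32e-18) at 5 h and 0.53 (SE 0.11, adjusted p = 0.000103) at 18 h against 0 h, and 3.49 (SE 0.13, adjusted p = 5.68e-20) from 5 to 18 h, by edgeR. Rxrb, the second RXR, followed in a milder form. It was 23.7 ± 2.19 CPM at 0 h (SD, n = 4), 10.3 ± 1.22 CPM at 5 h and 20.5 ± 4.05 CPM at 18 h, a fall of 1.20 on the log2 scale at 5 h (SE 0.24, adjusted p = 7.12e-05, edgeR). Rxrg was at 0 counts in every library.

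The 2 LXR genes behaved differently. Nr1h3 (LXRα) had 10.8, 8.72, 10.6 and 11.6 CPM at 0 h, 13.8, 11.8, 13.5 and 10.2 CPM at 5 h, and 89.3, 94.0, 76.2 and 107 CPM at 18 h in BMDM-WT. The 18 h libraries stood far above all others, whereas those of 0 and 5 h overlapped. Its log2 fold change at 18 h was 3.14 (SE 0.19, adjusted p = 3.93e-15 by edgeR), and 3.22 without the 3 libraries. Nr1h2 (LXRβ) stayed between 38.7 and 59.7 CPM in all 16 BMDM-WT libraries. It did not pass against 0 h at 5 h (log2 fold change 0.15, adjusted p = 0.496) or 18 h (0.19, adjusted p = 0.372) in the fit of all libraries. It passed as higher with the GC correction at both times (0.60, adjusted p = 1.67e-07, and 0.30, adjusted p = 0.00166), at 18 h without the 3 libraries (0.29, adjusted p = 0.00374) and at 5 h with only the libraries compared in the fit (0.23, adjusted p = 0.00266). Nr1h3 overlaps the exons of Gm13783 by 34 bases on the same strand.

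Pparg fell in BMDM-WT between 1 and 5 h. It had 62.3, 52.6, 57.6 and 57.2 CPM at 0 h and 67.4, 62.8, 60.9 and 62.4 CPM at 1 h, then 6.04, 4.65, 5.33 and 4.02 CPM at 5 h and 9.89, 11.1, 10.4 and 9.15 CPM at 18 h. The 0 and 1 h libraries overlapped, and the 5 and 18 h libraries lay apart from them and from each other. The log2 fold change against 0 h was -3.51 (SE 0.12, adjusted p = 1.3e-21) at 5 h and -2.50 (SE 0.11, adjusted p = 6e-19) at 18 h, by edgeR. Ppard, the broadly expressed PPAR of fatty acid oxidation, took the other direction, at 9.86 ± 0.58 CPM at 0 h and 20.2 ± 1.68 CPM at 18 h (SD, n = 4), a log2 fold change of 1.03 (SE 0.15, adjusted p = 4.24e-07, edgeR). Per length, Pparg exceeded Ppard at 0 h (27.0 against 3.01 RPKM), and at 18 h Ppard was the higher (6.17 ± 0.51 against 4.77 ± 0.38 RPKM). Ppara had at most 1 count in any library.

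Of the retinoic acid receptors, Rara fell and Rarg rose. Rara went from 12.0 ± 1.20 CPM at 0 h to 6.63 ± 1.61 CPM at 5 h (SD, n = 4), a log2 fold change of -0.86 (SE 0.16, adjusted p = 3.05e-05, edgeR). Rarg went from 11.1 ± 1.46 CPM at 0 h to 15.4 ± 1.72 CPM at 5 h and 20.1 ± 2.27 CPM at 18 h, with a log2 fold change of 0.46 (adjusted p = 0.0193) and 0.85 (SE 0.17, adjusted p = 5.58e-05). The call for Rarg at 5 h was lost when either BMDM-WT replicate 1 at 0 h or replicate 3 at 5 h was left out. The thyroid hormone receptor gene Thra fell from 8.06 ± 0.70 to 4.10 ± 0.62 CPM at 5 h (log2 fold change -0.98, SE 0.19, adjusted p = 5.41e-05) and was at 11.3 ± 1.40 CPM at 18 h (0.48, adjusted p = 0.014, and 0.051 without BMDM-WT replicate 4 at 18 h).

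The steroid receptor Nr3c1 (GR) was the most abundant member at 5 h. It had 96.4, 109, 103 and 106 CPM at 0 h, 128, 127, 141 and 151 CPM at 1 h, 335, 311, 346 and 345 CPM at 5 h, and 134, 153, 203 and 133 CPM at 18 h. The 5 h libraries were above all others, and those at 1 and 18 h lay between. The log2 fold change against 0 h was 0.40 (adjusted p = 0.0144), 1.69 (SE 0.12, adjusted p = 9.95e-14) and 0.59 (SE 0.12, adjusted p = 6.04e-05) at 1, 5 and 18 h by edgeR, and that at 1 h did not pass without BMDM-WT replicate 4 at 1 h (adjusted p = 0.062). Esr1, the oestrogen receptor α gene, rose from 3.97 ± 0.95 CPM at 0 h to 9.63 ± 1.44 CPM at 18 h (log2 fold change 1.26, SE 0.19, adjusted p = 8.61e-07). Esrra, encoding ERRα, an orphan regulator of mitochondrial genes, rose from 15.0 ± 1.79 to 30.8 ± 5.73 CPM at 18 h (1.03, SE 0.21, adjusted p = 9.45e-05), and it shares 73 exonic bases with Trmt112 on the opposite strand.

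The receptors of the circadian clock, the repressors REV-ERBα (Nr1d1) and REV-ERBβ (Nr1d2) and the activator RORα (Rora), each took a course of their own. Nr1d1 had 3.51, 3.37, 4.01 and 2.68 CPM at 0 h in BMDM-WT, and at 5 h 2, 0, 1 and 2 counts. With 3 counts per library taken as the floor, the 5 h level was at least 9.72-fold lower than at 0 h (adjusted p = 3.64e-10, edgeR), and at least 10.1-fold lower than at 18 h, when it was back at 3.84, 3.72, 2.18 and 4.40 CPM. Its transcript shares 263 bases with Thra on the opposite strand, and whether counting used the strand is not given in the sources used here, so reads of the pair cannot be fully separated. Nr1d2 had 41.4, 37.0, 30.7 and 30.3 CPM at 0 h and 103, 108, 149 and 101 CPM at 18 h. All 18 h libraries were higher, with a log2 fold change of 1.73 (SE 0.17, adjusted p = 1.86e-10, edgeR), and 1.58 without the 3 libraries, one of which held the value of 149. Rora had 20.1, 19.3, 18.4 and 18.9 CPM at 0 h, 26.7, 26.9, 27.9 and 28.4 CPM at 1 h, 7.74, 5.88, 6.10 and 6.38 CPM at 5 h, and 10.3, 12.6, 17.6 and 12.4 CPM at 18 h. It was thus highest at 1 h and lowest at 5 h, without overlap between groups, and its log2 fold change against 0 h was 0.52 (adjusted p = 0.0155), -1.55 (SE 0.18, adjusted p = 5.59e-09) and -0.53 (SE 0.16, adjusted p = 0.00474).

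Among the orphan receptors, Nr2c2, encoding TR4, fell at 5 h with little spread. It went from 44.2 ± 2.66 to 15.0 ± 1.22 CPM (SD, n = 4) and was at 50.0 ± 5.65 CPM at 18 h, and the log2 fold change at 5 h was -1.56 (SE 0.09, adjusted p = 2.13e-15, edgeR). Nr2f6, encoding the COUP-TF-related repressor EAR2, had 7.85 ± 1.68 CPM at 0 h and 3.06 ± 0.33 CPM at 5 h (log2 fold change -1.37, SE 0.23, adjusted p = 5.79e-06). The call for Nr2f6 at 1 h (-0.57, adjusted p = 0.0476, groups overlapping) was absent with DESeq2 and in most other settings. Nr2c2 and Nr2f6 share 4590 and 1622 exonic bases with Mrps25 and Ocel1 on the opposite strands. Nr2c1 (TR2) stayed at 11.7 to 16.5 CPM in all BMDM-WT libraries.

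**Figure D4:**
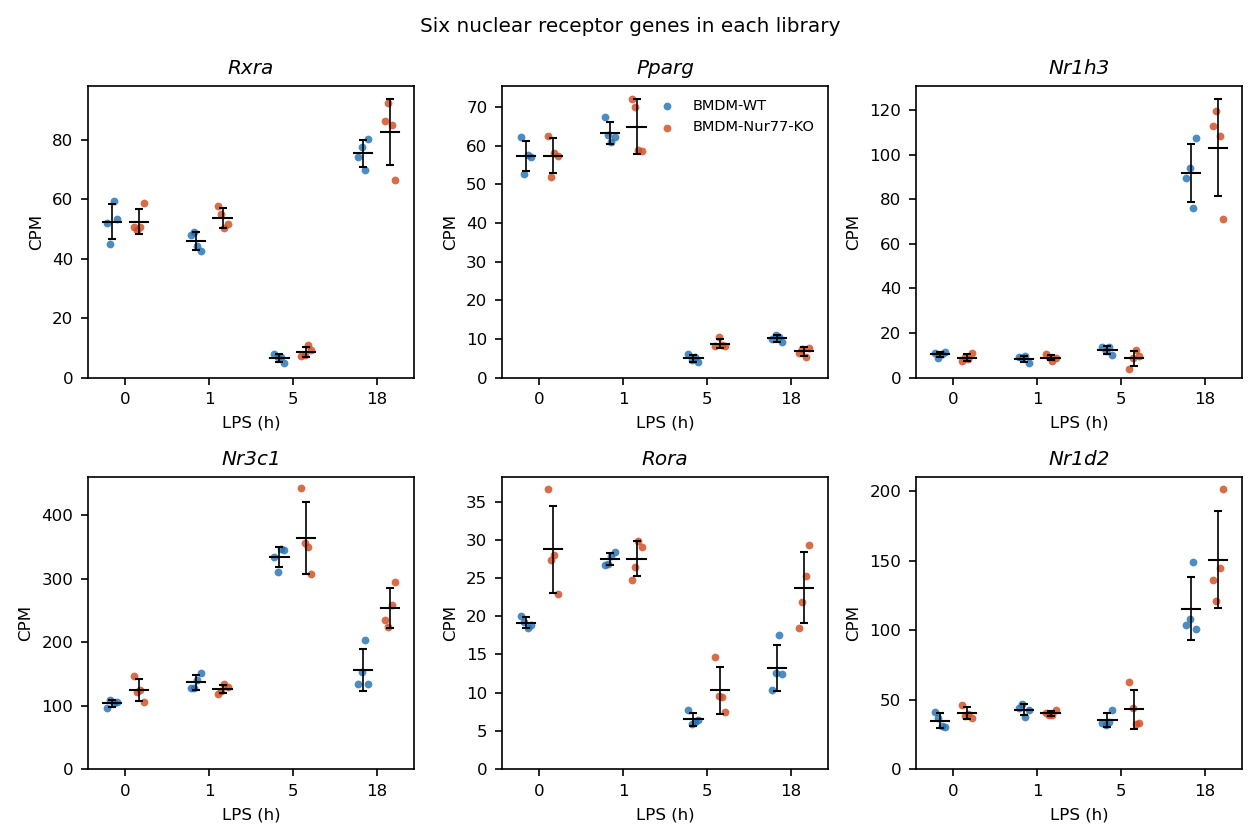
Levels of Rxra, Pparg, Nr1h3, Nr3c1, Rora and Nr1d2 in every library (y axis: CPM; x axis: time after LPS; points: single libraries of BMDM-WT and BMDM-Nur77-KO; bars: mean and SD, n = 4). Rxra and Pparg are low at 5 h, Rxra is back above its 0 h level at 18 h and Pparg is not, Nr3c1 peaks at 5 h, and Nr1h3 and Nr1d2 are highest at 18 h.

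BMDM-Nur77-KO went through the same time course, again with shared 0 h libraries. At 1, 5 and 18 h of LPS, 4, 15 and 13 of the 21 members passed in BMDM-Nur77-KO, against 12.2%, 71.2% and 69.2% of all genes. At 1 h, 3 rose (6.86% of all genes) and 1 fell (5.37%), at 5 h 5 rose (32.2%) and 10 fell (39.1%), and at 18 h 11 rose (33.7%) and 2 fell (35.5%). Past a log2 fold change of 1, the counts were 3, 12 and 10 (4.53%, 32.6% and 31.8% of all genes). Without BMDM-Nur77-KO replicate 1 at 5 h, replicate 4 at 18 h and BMDM-WT replicate 3 at 18 h, the counts were 9, 17 and 14. Over all 11279 genes they were 1999, 8238 and 8398, and the comparison at 1 h holds none of these libraries. The 10 receptors that fell at 5 h carried the same names as in BMDM-WT: Nr1d1, Nr2c2, Nr2f6, Nr4a1, Pparg, Rara, Rora, Rxra, Rxrb and Thra. Rxra fell from 52.4 ± 4.20 to 8.71 ± 1.73 CPM at 5 h and was 82.6 ± 11.2 CPM at 18 h. Nr1h3 reached 103 ± 21.7 CPM at 18 h, with its lowest value of 71.2 CPM in replicate 4, which stood apart in GC balance. Nr1h2 rose at 18 h in BMDM-Nur77-KO by 0.69 on the log2 scale (SE 0.19, adjusted p = 0.00174, edgeR), with replicate 4 (36.7 CPM) within the range of the 0 h libraries. It started lower, at 33.5 to 40.3 CPM at 0 h against 44.6 to 47.5 CPM in BMDM-WT, without overlap. That difference was called without these 3 libraries and with only the libraries compared, but not in all libraries or with the GC correction. At 18 h the genotypes overlapped (36.7 to 68.8 against 41.9 to 59.7 CPM).

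BMDM-Nur77-KO was then compared with BMDM-WT at each time. Before LPS, 3 of 21 members passed edgeR's test (12.7% of all genes), 1 higher (6.29%) and 2 lower (6.38%). At 1 h, 2 passed (6.51% of all genes), both lower (3.04%). None was higher at 1 h (3.47% of all genes), with 0 members at an unadjusted p under 0.05 and 0 called by DESeq2. Esrra, at 17.4 to 21.1 CPM against 13.0 to 14.5 CPM in BMDM-WT, and Rxra, at 50.3 to 57.6 against 42.6 to 49.1 CPM, nevertheless lay above every BMDM-WT library at 1 h (log2 fold change 0.42, adjusted p = 0.335, and 0.22, adjusted p = 0.305). Esrra passed as higher without the 3 libraries (adjusted p = 0.0101), and both passed with only the libraries compared in the fit (adjusted p = 0.00327 and 0.0295). At 5 h, 7 passed (24.2% of all genes), with 5 higher (13.5%) and 2 lower (10.6%), and at 18 h 5 passed (21.5% of all genes), with 4 higher (11.7%) and 1 lower (9.8%). With only the libraries compared in the fit, 403 genes passed at 5 h, against 2724 in the fit of all libraries. Of the 7 members Pparg alone then passed, and Nr1d1, Nr1h2, Nr2c1, Nr4a1, Nr4a2 and Rora were lost. At 18 h that fit called 1591 genes, against 2421, and lost Nr4a3. Past a log2 fold change of 1, 1, 1, 2 and 2 members passed at the 4 times (1.63%, 1.13%, 2.26% and 3.79% of all genes). Without the 3 libraries that stood apart, 6, 4, 5 and 6 members passed at 0, 1, 5 and 18 h, beside 3294, 1502, 2211 and 2942 of the 11279 genes. The comparisons at 0 and 1 h hold none of the 3. Their counts, and the call of Esrra at 1 h, thus changed only through the spread estimated over all groups and the scaling. The 5 at 5 h were Nr1d1, Nr1h2 and Pparg, which had passed in all libraries, and Rarg and Rxra, which had not, while Nr2c1, Nr4a1, Nr4a2 and Rora no longer passed. Rxra at 5 h had 7.20 to 10.9 CPM in BMDM-Nur77-KO against 4.85 to 8.08 CPM in BMDM-WT, overlapping, with a log2 fold change of 0.38 (adjusted p = 0.0606). It passed as higher without the 3 libraries (adjusted p = 0.032), with the GC correction (0.000741), with DESeq2 (0.0387) and with its size factors (0.0429). The fit with all transcripts summed (0.0408) brings no further data here, since each Rxra transcript had the same mean counts (90.75 in BMDM-Nur77-KO and 57.75 in BMDM-WT at 5 h). With the GC correction, 2, 3, 7 and 9 members passed at the 4 times, beside 1687, 1144, 3188 and 3278 of the 11279 genes. The members added at 18 h were Nr1d2, Nr1h3, Ppard and Rxra, all higher. Over the 4 times, 10 members passed at least once and 11 did not. The members' shares were 14.3%, 9.52%, 33.3% and 23.8% at 0, 1, 5 and 18 h, beside the shares of all genes just given.

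Nr4a1 had 4.92, 4.61, 4.44 and 7.00 CPM in BMDM-Nur77-KO at 0 h and 243, 180, 146 and 193 CPM at 1 h. Every library was below every BMDM-WT library of the same time, by 3.74-fold at 0 h (adjusted p = 1.51e-08) and 2.29-fold at 1 h (adjusted p = 1.85e-06, edgeR), and the gene was still raised by LPS, by 5.18 (SE 0.19) on the log2 scale against 4.48 (SE 0.18) in BMDM-WT. The difference between these responses did not pass (0.71, SE 0.24, adjusted p = 0.421). At 5 h, Nr4a1 had 1 to 7 counts where Nur77 was deleted, against 7 to 9 counts in BMDM-WT. This difference passed (log2 fold change -1.54, adjusted p = 0.0419) and was lost without the 3 libraries (adjusted p = 0.208) and with the GC correction (0.0695).

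Relative to BMDM-WT, Nr4a3 was lower at 1 h in BMDM-Nur77-KO, and both it and Nr4a2 were higher at 18 h. At 1 h, Nr4a3 had 8.38, 5.27, 5.26 and 7.21 CPM in BMDM-Nur77-KO, with the highest value inside the BMDM-WT range (7.56 to 12.9 CPM), a log2 fold change of -0.74 (SE 0.19, adjusted p = 0.0158, edgeR) that was lost in 4 of the 8 fits without 1 library. Nr4a2 had 8.81, 6.02, 5.90 and 6.53 CPM, also overlapping BMDM-WT, and did not pass at 1 h (-0.61, adjusted p = 0.0522), although it did without the 3 libraries (adjusted p = 0.00472) and with the GC correction (0.0216). None of the 3 is a 1 h library, so the fit without them changed only the spread estimated over all groups and the scaling. At 5 h, Nr4a2 was at 8.29, 4.19, 3.64 and 4.91 CPM against 2.66 to 3.67 CPM in BMDM-WT. Its log2 fold change of 0.72 (adjusted p = 0.0275) rested on replicate 1, the library with the lowest GC balance, without which the adjusted p was 0.22. Nr4a3 at 5 h had 14.9, 10.9, 10.9 and 8.06 CPM, overlapping BMDM-WT (8.08 to 9.22 CPM), and was not called. Its mean in BMDM-Nur77-KO was higher at 5 h (11.2 ± 2.83 CPM) than at 1 h (6.53 ± 1.54 CPM), with overlapping libraries. In BMDM-WT the mean was higher at 1 h (11.0 ± 2.39 against 8.73 ± 0.48 CPM).

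At 18 h, Nr4a2 had 3.14, 4.99, 4.35 and 6.06 CPM in BMDM-Nur77-KO against 1.73 to 2.56 CPM in BMDM-WT. The groups were separate, with a log2 fold change of 1.06 (SE 0.24, adjusted p = 0.00137, edgeR), and 0.95 (adjusted p = 0.00297) without the 3 libraries. Nr4a3 had 7, 5, 10 and 16 counts (0.627, 0.446, 0.701 and 1.31 CPM) against 1 to 4 counts in BMDM-WT (log2 fold change 1.61, SE 0.50, adjusted p = 0.0201). This call was lost without replicate 4 of BMDM-Nur77-KO (adjusted p = 0.133), which held the 16 counts, and without the 3 libraries (adjusted p = 0.0889). The response to LPS at 18 h relative to 0 h differed between the genotypes for Nr4a2 by 1.16 (SE 0.38, adjusted p = 0.0484) and for Nr4a3 by 2.28 (SE 0.65, adjusted p = 0.0199). That of Nr4a2 passed in 1 of 16 fits without 1 library and that of Nr4a3 in 14 of 16, the exceptions being BMDM-Nur77-KO replicate 4 and BMDM-WT replicate 1 at 18 h.

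Pparg changed sign between 5 and 18 h. Its means at 0 h were 57.4 ± 3.93 CPM in BMDM-WT and 57.5 ± 4.45 CPM in BMDM-Nur77-KO (SD, n = 4). At 5 h BMDM-Nur77-KO had 8.29, 10.4, 8.44 and 8.06 CPM, all above the BMDM-WT libraries (4.02 to 6.04 CPM), and at 18 h 6.45, 7.49, 5.40 and 7.77 CPM, all below them (9.15 to 11.1 CPM). The log2 fold change was 0.81 (SE 0.13, adjusted p = 6.33e-05) at 5 h and -0.58 (SE 0.12, adjusted p = 0.000479) at 18 h, by edgeR. Between 5 and 18 h the BMDM-WT level rose 2.02-fold (adjusted p = 6e-08, edgeR), whereas the BMDM-Nur77-KO libraries at 18 h lay below those at 5 h. The test of the difference in response relative to 0 h passed at both times, with 0.81 (SE 0.16, adjusted p = 0.0037) and -0.59 (SE 0.15, adjusted p = 0.0109). All 4 of these calls were kept without any 1 library, without the 3 libraries and with the GC correction.

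Rora was higher in BMDM-Nur77-KO at 0, 5 and 18 h. It had 36.6, 27.4, 28.0 and 22.9 CPM at 0 h against 18.4 to 20.1 CPM in BMDM-WT, and 18.5, 21.9, 25.2 and 29.4 CPM at 18 h against 10.3 to 17.6 CPM. The groups were separate at both times, with a log2 fold change of 0.58 (SE 0.15, adjusted p = 0.011) and 0.84 (SE 0.16, adjusted p = 0.000202, edgeR). That at 0 h was lost without BMDM-Nur77-KO replicate 1 (adjusted p = 0.083), and that at 18 h was kept in every fit. At 5 h the groups overlapped, and the call (0.65, adjusted p = 0.015) was lost without replicate 1 of BMDM-Nur77-KO (adjusted p = 0.127) and without the 3 libraries (0.0538). At 1 h the means were 27.5 ± 0.80 CPM in BMDM-WT and 27.5 ± 2.32 CPM in BMDM-Nur77-KO. At 18 h, Nr3c1 too differed between the genotypes. Its libraries held 235, 224, 258 and 295 CPM against 134, 153, 203 and 133 CPM, without overlap, a log2 fold change of 0.70 (SE 0.12, adjusted p = 3.33e-05), and 0.77 (adjusted p = 5.18e-08) without the 3 libraries. The difference in the response of Nr3c1 from 0 to 18 h did not pass (0.43, adjusted p = 0.104), but did with the GC correction (0.54, adjusted p = 0.000204) and without the 3 libraries (0.51, adjusted p = 0.00288). The macrophage marker list differed at 18 h as well: its BMDM-Nur77-KO libraries summed to 11065 to 12683 CPM and the BMDM-WT libraries to 14055 to 14706 CPM, with 8 of 8 markers present in both. The sum weighs Lyz2 most, which had 3710 to 11567 CPM over all libraries, while Adgre1, the next, had 875 to 3897 CPM. Mertk, on the same list, was instead higher in BMDM-Nur77-KO at 18 h, so the sum does not speak for each marker. The macrophage list was also lower in sum in BMDM-Nur77-KO at 5 h, at 13296 to 16136 against 16577 to 18013 CPM. The neutrophil list, with 7 genes, was higher at 1 h, at 30.2 to 36.7 against 21.3 to 27.9 CPM, and both were without overlap. Lists that summed to under 5 CPM were also separate at single times (B cell at 0 h, fibroblast at 18 h and erythroid at 5 h). Their part in the genotype differences was not tested.

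The remaining genotype calls were weaker. Rara had 7.10, 8.21, 8.58 and 9.54 CPM in BMDM-Nur77-KO at 0 h and 10.6 to 13.3 CPM in BMDM-WT (log2 fold change -0.52, SE 0.15, adjusted p = 0.0238), and was not called with the GC correction (-0.30, adjusted p = 0.18). The 0 h GC balance was -1.01, -0.84, -0.88 and -0.49 in BMDM-Nur77-KO and ranged from -0.59 to -0.34 in BMDM-WT. Nr1d1 at 5 h had 6, 17, 3 and 6 counts in BMDM-Nur77-KO against at most 2 in BMDM-WT, which is at least 2.12-fold higher over the floor (adjusted p = 0.00813), and the call was lost without the library of 17 counts (adjusted p = 0.0642). Nr1h2 at 5 h had 16.4, 33.9, 43.6 and 49.5 CPM against 48.3 to 52.7 CPM (log2 fold change -0.51, adjusted p = 0.0497), an order that followed the GC balance at both ends. It was -0.28 (adjusted p = 0.0288) without the 3 libraries and -0.36 (0.00247) with the GC correction, but did not pass with DESeq2's size factors (adjusted p = 0.0527), no filter (0.058), all transcripts summed (0.052), the replicate block (0.0576) or only the libraries compared in the fit (0.288). Rxrb (2.40 to 12.3 CPM) and Esrra (6.98 to 22.4 CPM) were likewise lowest in replicate 1 and highest in replicate 4. Nr2c1, poor in GC at 43.8%, ran the other way, at 27.5, 22.1, 15.5 and 14.6 CPM against 14.0 to 15.8 CPM (0.44, adjusted p = 0.023), and did not pass without the 3 libraries (0.25, adjusted p = 0.13) or with the GC correction (0.24, 0.0719).

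**Figure D5:**
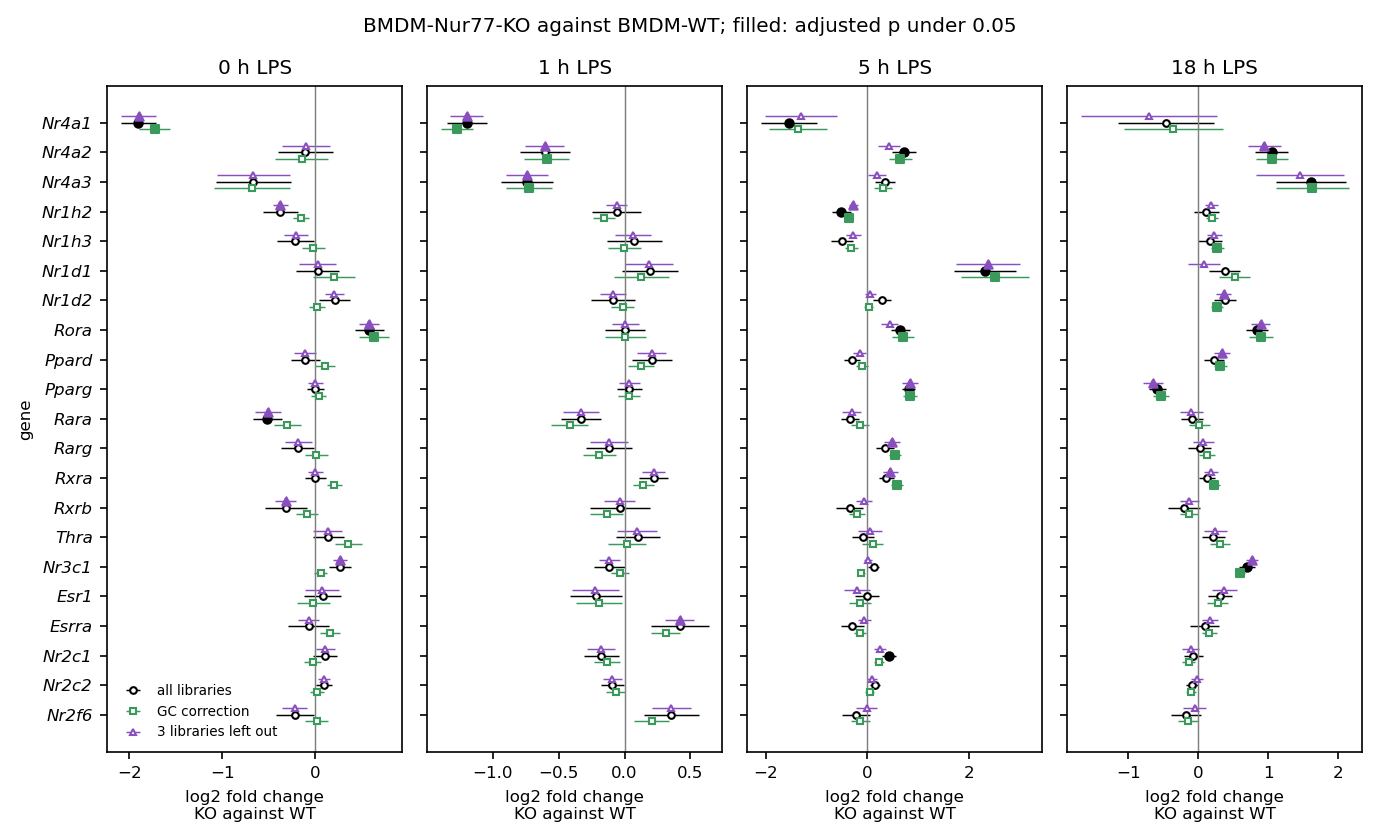
Log2 fold change of BMDM-Nur77-KO over BMDM-WT for the 21 tested receptors at each time (x axis: log2 fold change, each panel with its own scale; y axis: genes; bars: standard error; filled points: adjusted p under 0.05 by edgeR). Circles show the fit of all libraries, squares the GC correction and triangles the fit without the 3 libraries of low GC balance. Pparg is to the right of 0 at 5 h and to the left at 18 h in each. Among the circles, Nr3c1, Rora, Nr4a2 and Nr4a3 are filled to the right at 18 h. Nr4a3 is not filled there among the triangles. Nr1d2 and Ppard are filled to the right at 18 h among squares and triangles, and Nr1h3 and Rxra among squares only.

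The interaction tests, which compare the response to LPS between the genotypes, passed for few members. At 1 h edgeR called 0 of 21 (0.0709% of all genes), with 3 at an unadjusted p under 0.05 (Nr4a1, Nr3c1 and Rora) and 0 by DESeq2. At 5 h, Pparg alone passed (3.1% of all genes), and at 18 h Pparg, Nr4a2 and Nr4a3 did (9.4% of all genes). At an unadjusted p under 0.05 by edgeR, 6 members had a higher response in BMDM-Nur77-KO at 5 h and 0 a lower one. These were Nr1d1, Nr4a2, Nr4a3, Pparg, Rarg and Rxra. At 18 h, 3 were higher and 1 lower at that limit. Past a log2 difference of 1, 0, 0 and 2 members passed at the 3 times (0%, 0.629% and 2.36% of all genes). Without the 3 libraries the counts were 2, 3 and 5 (487, 701 and 1762 of all genes). Nr3c1 and Rora were added at 1 h, Nr1d1 and Rarg at 5 h and Nr1h2 and Nr3c1 at 18 h. The test at 1 h holds none of the 3, so its count changed only through the spread estimated over all groups and the scaling.

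Genes that work with the receptors were read from 9 lists. In BMDM-WT at 5 h of LPS, 5 of 10 corepressors fell and 4 rose (median log2 fold change -0.15, against -0.14 over all genes). Bcor and Tbl1x, parts of the BCL6 and NCoR complexes, rose by 1.17 and 0.94 on the log2 scale. Of 13 coactivators, 7 rose and 2 fell (median 0.34), with Ppargc1b, encoding PGC-1β, up from 4.17 ± 0.26 to 14.4 ± 2.02 CPM (SD, n = 4), the mediator subunit gene Med1 up by 0.79 and Ncoa4 down (log2 fold change -1.40). The adjusted p of the genes named in these lists was at most 0.0366 at 5 h by edgeR, and 70% of all genes passed there.

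The target lists were mixed at 5 h. Of 13 LXR targets, 7 fell and 2 rose (median -0.25): the desaturase gene Scd2 fell from 293 ± 12.5 to 44.5 ± 1.35 CPM and Fasn, encoding fatty acid synthase, from 57.8 ± 6.09 to 17.6 ± 3.26 CPM, while Mertk, an efferocytosis receptor, rose from 122 ± 16.6 to 365 ± 10.2 CPM. Of 10 PPAR targets, 3 fell and 2 rose (median -0.15), with Angptl4 at least 23.6-fold lower over the floor of 3 counts, Plin2, the lipid droplet coat gene, lower (log2 fold change -0.94) and Acsl1, an acyl-CoA synthetase, up from 57.3 ± 3.34 to 631 ± 18.1 CPM. All 11 GR targets tested passed, 7 higher and 4 lower (median 0.63). Mt2, a metallothionein, rose from 3.88 ± 0.60 to 286 ± 17.6 CPM, whereas Tsc22d3, encoding GILZ, fell from 28.5 ± 5.07 to 2.55 ± 0.47 CPM and Per1, a clock gene, from 27.1 ± 1.13 to 2.60 ± 0.53 CPM. Of 3 retinoid targets, Tgm2, encoding transglutaminase 2, rose (2.74) and Dhrs3, encoding a retinal reductase, fell (-2.05). Both genes tested from the vitamin D list, Cd14 and Camp, rose (1.75 and 1.09), Camp from under 1 CPM. Whether the vitamin D receptor acts on them in these cells was not tested. Cd14 and Mertk are also on the macrophage list and Camp on the neutrophil list.

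The clock partners of REV-ERB and ROR were the list furthest from all genes at 5 h: 9 of 13 fell and 2 rose, with a median log2 fold change of -2.41. The transcription factor genes Npas2, Bhlhe40 and Tef fell from 6.81 ± 1.11 to 0.647 ± 0.37, from 46.5 ± 3.59 to 5.13 ± 0.71 and from 37.0 ± 2.99 to 4.24 ± 0.78 CPM. Of 8 enzymes that make or clear ligands, 5 fell and 2 rose (median -0.61). Ptgs2, encoding cyclooxygenase 2, rose from 1.68 ± 0.68 to 985 ± 117 CPM, and Ch25h, which makes the LXR ligand 25-hydroxycholesterol, from 0.130 ± 0.12 to 47.7 ± 5.74 CPM. Dio2, encoding the deiodinase that activates thyroid hormone, fell from 12.5 ± 1.96 to 1.90 ± 0.63 CPM.

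Between the genotypes at 18 h, when 21.5% of all genes passed, the lists with the most calls were the GR and LXR targets. Of 11 GR targets, BMDM-Nur77-KO had 5 higher and 1 lower (median 0.32 against -0.01 over all genes): the transcription factor gene Klf9 was higher, at 6.21 ± 1.85 against 3.02 ± 0.92 CPM (adjusted p = 0.000702), as was Per1 (log2 fold change 0.41, adjusted p = 0.00937), and Tsc22d3 was lower, at 34.4 ± 3.23 against 50.7 ± 4.22 CPM (adjusted p = 0.00173). Of 13 LXR targets, 5 were lower and 2 higher (median -0.33). Scd2 was at 138 ± 18.1 against 291 ± 20.0 CPM (adjusted p = 1.46e-09) and Pltp, a lipid transfer protein gene, at 510 ± 101 against 822 ± 75.8 CPM (adjusted p = 0.00124), while Mertk was at 514 ± 53.5 against 318 ± 10.6 CPM (adjusted p = 5.4e-07). All are from edgeR, and the macrophage list to which Mertk belongs was lower in sum.

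Of 13 clock partners at 18 h, edgeR called 4 higher and 0 lower in BMDM-Nur77-KO, and the median was 0.30. In either direction, 5 were called by DESeq2 and 7 were at an unadjusted p under 0.05, among them Per3, which was lower (log2 fold change -0.35, adjusted p = 0.0627). Without the 3 libraries, 5 were called higher and 1 lower. Bhlhe40 was at 22.2 ± 1.34 against 8.75 ± 0.61 CPM, Nfil3 at 29.9 ± 3.09 against 15.6 ± 1.57 CPM and Bhlhe41 at 102 ± 17.8 against 71.3 ± 5.95 CPM, which are all transcriptional repressors. Among 8 ligand enzymes, 2 were higher and 1 lower (median 0.03). The higher ones were Ptgs2, at 773 ± 174 against 99.8 ± 20.9 CPM, and Ch25h, at 18.1 ± 4.06 against 2.78 ± 0.21 CPM. Of 10 PPAR targets, 2 were higher (Acsl1, log2 fold change 0.63, and Acadl, 0.32) and 1 lower (Fabp5, -0.57), with a median of 0.04. Of 10 corepressors, 2 were higher, Nrip1 (0.48) and Tbl1x (0.23), with a median of 0.15, and of 3 retinoid targets 1 was lower, Dhrs3 (-0.28). Of 13 coactivators and 2 genes of the vitamin D list, 0 were called by edgeR, with 1 and 0 at an unadjusted p under 0.05 and 1 and 0 by DESeq2. The named genes of these lists had an adjusted p of at most 0.0347.

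The 18 members that were not tested did not pass the filter on RPKM. Nr1i2 (PXR) and Rxrg were at 0 in all 32 libraries and Rorb too once counts were rounded, having a single mate (0.5) in a BMDM-WT library at 1 h, which allows up to 3 counts in each. A further 9 had at most 4 counts in any library: Ppara, Esr2, Esrrb, Esrrg, Nr2f1, Nr2f2, Hnf4a and Nr5a2 at most 1, and Nr1h4, the bile acid receptor FXR, at most 4. The other 6 were above this, with 0 to 24 counts for the vitamin D receptor gene Vdr, 0 to 16 for Nr1i3 (CAR), 0 to 10 for Rarb, 2 to 27 for Thrb, 0 to 16 for the mineralocorticoid receptor gene Nr3c2 and 7 to 58 for Nr6a1 (GCNF). The exons of Nr1i3 and Rarb overlap Tomm40l and Top2b on the opposite strands by 3304 and 1793 bases. With the filter of edgeR's filterByExpr, Nr6a1, Vdr and Nr3c2 entered the test and were called in some comparisons, though in 0 between the genotypes. In BMDM-WT at 5 h of LPS, Nr6a1 fell by 1.15 on the log2 scale (adjusted p = 9.53e-05) and Vdr was also called lower (adjusted p = 0.00178). Nr3c2 was called lower at 18 h in BMDM-Nur77-KO (adjusted p = 0.00211) and from 1 to 5 h in BMDM-WT (0.00959). With no filter, Rarb was called lower at 5 and 18 h in BMDM-WT and at 18 h in BMDM-Nur77-KO, and Nr1h4 higher at 18 h in BMDM-Nur77-KO against its own 0 h and against BMDM-WT (adjusted p = 0.00429 and 0.0259), on at most 4 counts per library.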

How the data were processed

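BMDM-WT and BMDM-Nur77-KO were measured by RNA-seq in 32 libraries, 4 in each of 8 groups of genotype and time, assigned from the sample titles and conditions. The authors deposited 1 table of expected counts on 42361 RefSeq transcripts, without normalization. Per the labels and methods, reads were processed with CASAVA 1.8.2, aligned to mm10 with HISAT2 2.1.0, filtered on mapping quality with SAMtools and counted with HOMER. Each mate adds 0.5, and 28.6% of the values are not whole. Of the transcripts, 42203 were named through RefSeq and 65 through GENCODE, and 93 unnamed ones, with 0.233% to 1.37% of a library's tags, were left out.

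One transcript, that of highest mean count, stood for each of 25067 genes, and its counts were rounded. Tests were run in edgeR 4.0.16 (R 4.3.3, limma 3.58.1), and DESeq2 1.42.0 served as an alternative. After TMM scaling, 1 quasi-likelihood model with 8 group means was fitted to the 11279 genes whose average RPKM exceeded 1 in some group, and p-values were adjusted by Benjamini-Hochberg across all of them. Calls have an adjusted p under 0.05, and SE is the log2 fold change over the square root of F. A gene with at most 3 counts in each library of a group was given a bound against 3 counts per library, which covers counting error only. Replicates of a group differed by more than sampling noise (chi-square per gene of at least 1.94). The scripts were tested on simulated data.

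All 39 members are accounted for, and those tested are named with values. From each list of partner genes, at most 3 called genes with the largest absolute log2 fold change are named, for LPS in BMDM-WT at 5 h and for the genotypes at 18 h. The members and lists were chosen with earlier results of these data known. The alternatives were DESeq2's Wald test and size factors, filterByExpr, no filter, all transcripts summed, the libraries compared only, a replicate block, fold limits and leaving out each library. After seeing the data, a lowess correction (span 0.3) for transcript GC content and fits without 3 libraries of low GC balance were added. Some genes of the lists are counted but not reported here by name.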

Additional observations from a re-analysis of the deposited data

Results flagged for a closer look

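Of 168 groups of 4 libraries checked for the 21 tested receptors, 7 held a library far from the other 3 by Dixon's test at the 95% level, where chance gives about 1 in 20. In BMDM-Nur77-KO at 0 h, replicate 4 was the highest for Nr1h2 (40.3 CPM against 33.5 to 34.3), Ppard (10.6 against 8.59 to 8.74) and Rxra (58.7 against 49.7 to 50.7). Its GC balance was also the highest of that group, at -0.49 against -1.01 to -0.84. In BMDM-WT at 18 h, replicate 3, which also stood apart in GC balance, was the highest for Nr1d2 (149 CPM against 101 to 108) and Nr2c2 (58.5 against 46.7 to 47.5). Pparg was highest in BMDM-Nur77-KO replicate 2 at 5 h (10.4 CPM against 8.06 to 8.44), and Nr2c1 lowest in BMDM-WT replicate 4 at 1 h (11.7 CPM against 15.1 to 15.8).

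The response to LPS differed between the genotypes, by edgeR's interaction test against 0 h, in 4 cases. They are Pparg at 5 h, with a difference in log2 fold change of 0.81 (adjusted p = 0.0037), Pparg at 18 h, with -0.59 (adjusted p = 0.0109), Nr4a2 at 18 h, with 1.16 (adjusted p = 0.0484), and Nr4a3 at 18 h, with 2.28 (adjusted p = 0.0199).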

How the results depend on the processing

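DESeq2 kept 117 of the 119 calls of members and added 7. For the genotypes, 6, 6, 1 and 4 members passed at 0, 1, 5 and 18 h with the libraries compared only, 6 at 0 h and 4 at 1 h without the 3 libraries of low GC balance, 5 at 1 h and 9 at 18 h with the GC correction as well, 9 at 18 h with the GC correction alone or with the replicate block, and 1, 1, 2 and 2 at a log2 fold change over 1. For LPS in BMDM-WT, 10 passed at 1 h with the GC correction, with or without the block, 11 without the 3 libraries as well, and 3 at a log2 fold change over 0.58 or over 1, and 8 passed at 18 h over 1. For LPS in BMDM-Nur77-KO at 1 h, 7 passed with DESeq2 and 9 with the libraries compared only or without the 3 libraries, with or without the GC correction. For the interaction, 1 member at 1 h passed with the libraries compared only and 2 without the 3 libraries. At 5 h, 2 passed with all transcripts summed or with the GC correction, 3 without the 3 libraries, 2 without them and with the GC correction, and 0 over a log2 difference of 1. At 18 h, 5 passed with the GC correction, with or without the block, and without the 3 libraries, with or without the GC correction. With all transcripts summed, 14 members exceeded 10 RPKM in a group, against 9. That sum adds transcripts of a gene with nearly the same counts, such as those of Rxra (592.9, 592.6 and 592.5 on average), over 1 length. Shared reads are thus counted more than once, and the sum is no estimate of the level. The cause of the other changes was not tested.

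Without each library in turn, the members called ranged from 1 to 3, 1 to 3, 3 to 7 and 4 to 6 for the genotypes at 0, 1, 5 and 18 h, 4 to 6, 13 to 15 and 13 to 15 for LPS in BMDM-WT, 4 to 6, 14 to 15 and 13 to 14 in BMDM-Nur77-KO, 0 to 0, 1 to 2 and 1 to 3 for the interaction, 13 to 15 from 1 to 5 h and 16 to 18 from 5 to 18 h. Of the partner genes, 61 to 66 were called at 5 h (65 in all libraries) and 22 to 33 at 18 h (26). No call changed direction. Same-numbered samples were not alike throughout (correlation of their deviations -0.504 to 0.46). The mean correlation ran from -0.227 for LPS in BMDM-Nur77-KO at 18 h to 0.162 at 5 h. These deviations also hold the GC imbalance, so whether the numbers pair the samples cannot be decided from them. The replicate block kept 117 of 119 calls, losing Nr1h2 at 5 h between the genotypes and Nr2f6 at 1 h. Genes with few counts, such as Nr4a1 and Nr1d1 at 5 h and Nr4a3 at 18 h, allow no firm fold change at this depth.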
